A study of Mus musculus with 12 samples.

Results

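CD4+ T cells that received *Lactobacillus acidophilus* (*L. acidophilus*) and FK506 together with anti-CD3, the combination treatment, were compared with CD4+ T cells stimulated with anti-CD3 alone. The 3 libraries of the combination treatment were set against the 3 libraries of anti-CD3 alone, 6 of the 12 in the data set. A gene entered the test when at least 3 of the 12 libraries held a count above 0 for it, as 23585 of the 45777 genes listed did. In every group the cells were labelled as CD4+ T cells from the spleen of wild type Balb/c mice aged 7 weeks, cultured for 3 days with anti-CD3 at 0.5 ug/ml. The 6 other libraries, 3 with *L. acidophilus* and 3 with FK506 as single treatments, received the same anti-CD3. The labels give no dose of either agent and do not say whether the libraries of a group came from separate animals or cultures. The p-values therefore measure the spread between these libraries, which may be technical. The study's methods name B6 mice where the labels name Balb/c, and describe the bacterium used in culture as heat-inactivated.

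Anti-CD3 crosslinks the T-cell receptor complex and raises intracellular calcium, which activates the phosphatase calcineurin. Calcineurin dephosphorylates NFAT, which then enters the nucleus and, with AP-1 partners, switches on cytokine genes. FK506 (tacrolimus) bound to its immunophilin blocks calcineurin. *L. acidophilus* is a Gram-positive lactic acid bacterium whose cell wall components are sensed through Toll-like and Nod receptors. A stimulated CD4+ T cell also grows before it divides: it takes up glucose and amino acids, makes lipids and ribosomes, and leaves the quiescent state held by factors such as KLF2 and TCF-1. A regulatory T cell (Treg) is a CD4+ T cell that carries the factor FOXP3 and restrains other T cells.

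The 6 libraries held between 45416397 and 63218325 counts each. Library 1 held the most counts of its group in all 4 groups, with 63218325 for anti-CD3 alone and 63113961 for the combination. Combination libraries 2 and 3 were the closest pair, with a chi-square per degree of freedom of 4.58 over genes, against 77.7 to 197 for the other pairs within the groups. Anti-CD3 library 2 was the most distant from the others of its group, at 197 and 172. Combination library 1 stood apart for several genes given below. The share of counts in mitochondrial genes was 1.41% to 1.92% with anti-CD3 alone and 2.73% to 2.98% with the combination. Changes are given as log2 fold changes (combination over anti-CD3) from edgeR's quasi-likelihood test on the counts, scaled by TMM factors, which correct for differences in library composition. A gene was called changed when its fold change was at least 2 and its adjusted p (Benjamini-Hochberg) was under 0.05. Levels are given as FPKM, fragment counts scaled to transcript length and library size, in the order of libraries 1, 2 and 3. FPKM carry no TMM factor, and a ratio of FPKM can differ from the fitted fold change. For *Pik3ip1*, given below, the difference was larger than the 0.20 by which these factors moved the median log2 fold change. The cause of such larger differences was not tested. Groups are said to overlap or not by their TMM-scaled counts per library size.

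The combination treatment changed 5797 of the 23585 genes tested, 24.6% of them. Expression rose for 3256 genes (13.8%) and fell for 2541 genes (10.8%). The median log2 fold change over all genes tested was 0.02. The 3 combination libraries did not overlap the 3 anti-CD3 libraries for 12003 genes (50.9%), with the combination higher for 26.2% of the genes tested and lower for 24.7%. Among the genes called changed, 5623 did not overlap and 174 did. Fitted changes of at least 16-fold were found for 912 genes that rose and 330 that fell. The lower group held at most 3 counts in every library for 630 of the 912 and 230 of the 330, so that the size of these folds was not measured, which left 282 rises and 100 falls. Abundant genes leaned the other way. Of the 6438 genes with a mean of at least 10 FPKM over both groups, 400 rose and 950 fell. Among genes annotated as long non-coding RNA, 617 rose and 241 fell of 3549 tested. Without TMM factors the median of all genes moved by 0.20 on the log2 scale and 68.5% of the calls were rises, against 56.2% with them. In 32 lists of pathway genes, 304 of 630 members tested were changed. Counts of list members below stand against the shares of 13.8% higher and 10.8% lower over all genes tested.

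**Figure D1:**
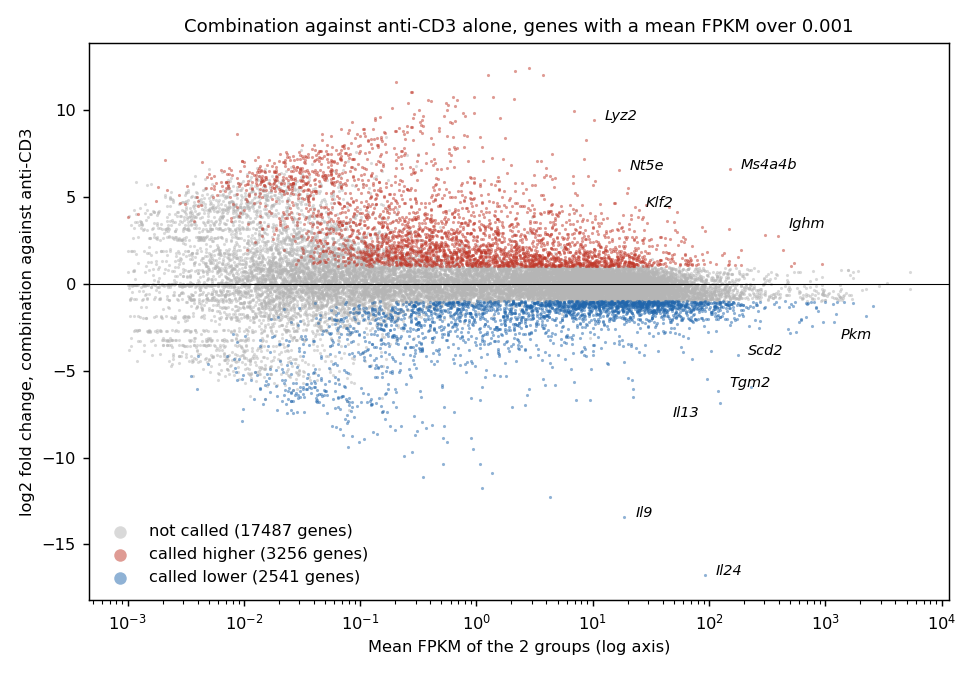
Log2 fold change (combination over anti-CD3, y axis) against mean FPKM over the 6 libraries (x axis, log scale) for each gene tested with a mean above 0.001 FPKM. Red points are the 3256 genes called higher, blue points the 2541 genes called lower, and grey points the genes not called; rises dominate among scarce genes and falls among abundant ones.

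Markers of other cell types moved with the comparison and are given before the gene groups. None of the 8 T-cell markers was called changed with edgeR, while limma on quantile-normalized log2(FPKM + 1) called 3 of them higher, *Trac*, *Cd3e* and *Cd4*, with log2 fold changes of 1.24, 1.21 and 1.02. With libraries 2 and 3 of every group alone, edgeR called *Cd2* lower (log2 fold change -1.17, adjusted p = 0.00174). Their summed level was 1485, 2347 and 1851 FPKM with anti-CD3 alone and 2583, 2119 and 2137 FPKM with the combination. Among 17 B-cell markers, 11 rose and none fell, with a median log2 fold change of 1.79. Their summed level was 110.1 to 189 FPKM with anti-CD3 alone and 804 to 941 FPKM with the combination (874 to 1801 FPKM with FK506 as a single treatment). *Ighm*, the immunoglobulin mu chain, was at 116, 80.2 and 66.2 FPKM in the anti-CD3 libraries and 619, 725 and 732 in the combination libraries (log2 fold change 2.77, SE 0.36, adjusted p = 9.96e-05). *Cd79a*, a signaling chain of the B-cell receptor, was at 15.9, 11.9 and 8.42 FPKM with anti-CD3 alone and 44.9, 50.4 and 50.9 with the combination (log2 fold change 1.79, SE 0.26, adjusted p = 0.000203). All combination libraries lay above all anti-CD3 libraries for both genes. Among immunoglobulin variable segments, 52 of 105 heavy chain and 48 of 99 kappa chain segments rose; without single libraries these counts ranged from 41 (without anti-CD3 library 2) to 55 and from 32 (without anti-CD3 library 3) to 48.

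Of 10 genes of MHC class II presentation, 8 rose, with *Cd74*, the invariant chain, at 97.6, 58.8 and 49.1 FPKM in the anti-CD3 libraries and 544, 538 and 536 in the combination libraries (log2 fold change 2.78, SE 0.33, adjusted p = 5.98e-05). The combination libraries lay above the anti-CD3 libraries for all 10, against 26.2% of all genes tested. The pseudogene *H2-Ea-ps* was transcribed in all 12 libraries, at 23.04, 10.8 and 9.53 FPKM with anti-CD3 alone and 151, 169.8 and 163 with the combination. The 14 markers of macrophages, monocytes and neutrophils were low throughout, with a summed level of 4.20 to 7.24 FPKM with anti-CD3 alone and 76.4 to 95.9 FPKM with the combination. Of these, 12 rose and *Ly6g* fell to 0 in all 3 libraries. *Lyz2*, lysozyme of myeloid cells, was at 0.0257, 0.0327 and 0 FPKM in the anti-CD3 libraries and 30.8, 14.5 and 16.1 in the combination libraries (log2 fold change 9.40, SE 1.32, adjusted p = 0.000164), at least 399-fold higher when a floor of 3 counts per library was used. *Cd68*, a lysosomal protein of macrophages, was at 3.38, 2.45 and 2.01 FPKM with anti-CD3 alone and 27.3, 25.4 and 26.6 with the combination (log2 fold change 3.11, SE 0.34, adjusted p = 3.52e-05). *Csf1r*, *C1qa*, *C1qb* and *Marco* were at 0 in all anti-CD3 libraries and between 0.705 and 2.61 FPKM in the combination libraries. Markers of red cells and platelets were also near 0 with anti-CD3 alone, where 6 of the 9 were at 0 in all libraries, and 6 of the 7 tested rose. Their summed level was 0.388 to 0.756 FPKM with anti-CD3 alone and 4.43 to 6.52 FPKM with the combination, and limma on log2(FPKM + 1) called none of them. Of 6 markers of CD8 T cells and NK cells tested, *Klrb1c* and *Klra1* rose, at 0 in all anti-CD3 libraries and at most 0.322 FPKM with the combination. The summed levels of that list overlapped, from 3.27 to 7.27 FPKM with anti-CD3 alone and from 5.59 to 6.97 FPKM with the combination. Of 7 dendritic cell markers tested, *Flt3* and *Zbtb46* rose and *Batf3* fell. Without anti-CD3 library 1, 4 were called higher, *Itgax* and *Xcr1* as well, and without TMM factors 3. The summed levels overlapped (87.7 to 188 FPKM and 95.7 to 143 FPKM). *Flt3*, a growth factor receptor of dendritic cell precursors, was at 0.216, 0.152 and 0.155 FPKM in the anti-CD3 libraries and 5.09, 4.15 and 4.41 in the combination libraries (log2 fold change 4.47, SE 0.54, adjusted p = 6.17e-05). In bulk RNA, fewer cells of a type and less RNA per cell cannot be told apart, and neither can more cells and more RNA per cell. The part of these cell types in the results below was not tested.

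**Figure D2:**
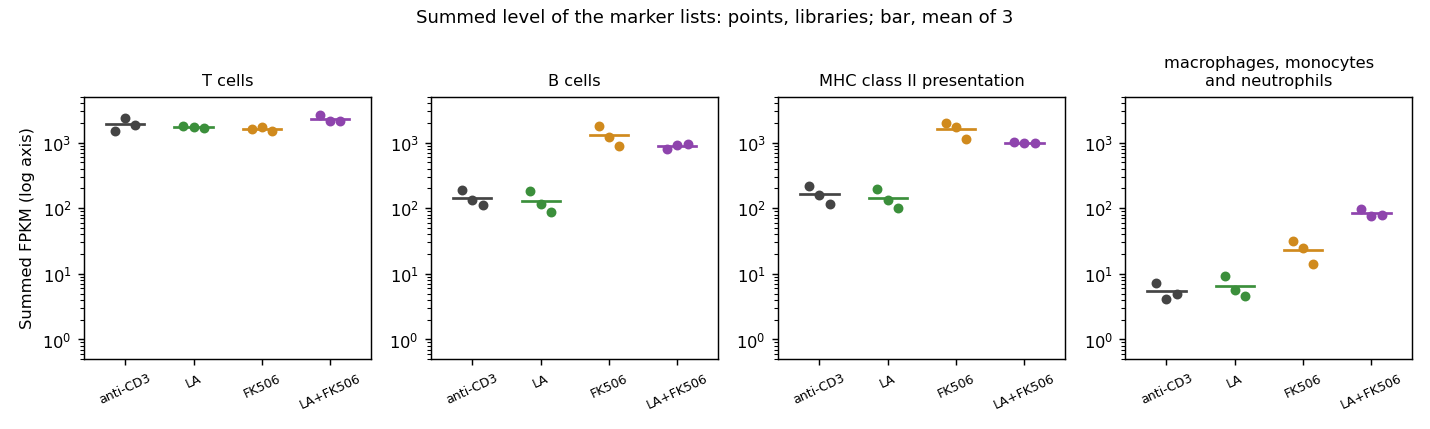
Summed FPKM (y axis, log scale) of the marker genes of T cells, B cells, MHC class II presentation, and macrophages, monocytes and neutrophils in each of the 12 libraries, by treatment group (points, libraries; bars, means of 3; LA, *L. acidophilus*; LA+FK506, combination). T-cell markers sum to 1485 to 2583 FPKM in the libraries of both groups compared, while B-cell markers sum to 110.1 to 189 FPKM with anti-CD3 alone and 804 to 941 FPKM with the combination.

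Cytokine genes made by activated CD4+ T cells held some of the deepest falls. Of 23 effector cytokines tested, 13 fell, 4 rose and 6 were not called changed, with a median log2 fold change of -1.20. *Il24* (gene ID 93672, chr1:130882074-130887411 in GRCm38.p6), a cytokine of the IL-10 family, was at 235, 143 and 178 FPKM with anti-CD3 alone, from 9117 to 19334 counts, and had 0 counts in every combination library. With the floor of 3 counts per library it was at least 4659-fold lower (adjusted p = 9.68e-06). *Il9*, the cytokine of Th9 cells, was at 40.2, 40.6 and 31.5 FPKM with anti-CD3 alone, from 1054 to 1620 counts, and also had 0 counts in every combination library, at least 463-fold lower (adjusted p = 2.16e-05). Both were detected in every library of the single treatments, with mean levels of 89.7 and 38.4 FPKM with *L. acidophilus* and 64.1 and 45.4 FPKM with FK506. A count of 0 beside at least 1000 counts in another of the 12 libraries was seen for 22 genes, and it also occurred between libraries of a single group, for 2 genes with anti-CD3 alone and 3 with the combination.

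Among the cytokines that fell were *Il13*, *Il4* and *Il5*, which belong to type 2 responses. *Il13*, the Th2 cytokine that acts on epithelium, was at 364, 241 and 127 FPKM with anti-CD3 alone and 2.14, 2.34 and 2.92 with the combination (log2 fold change -6.85, SE 0.57, adjusted p = 9.37e-06). *Il4*, which drives Th2 differentiation, was at 60.2, 20.8 and 24.5 FPKM in the anti-CD3 libraries and 1.85, 1.27 and 2.23 in the combination libraries (log2 fold change -4.50, SE 0.70, adjusted p = 0.000327). *Il5*, the growth factor of eosinophils, was at 11.5, 6.23 and 6.78 FPKM with anti-CD3 alone and 0.667, 0.187 and 0.281 with the combination (log2 fold change -4.58, SE 0.71, adjusted p = 0.000316). For each of these genes the lowest anti-CD3 library was more than 9 times the highest combination library. *Il3*, a growth factor of mast cells and basophils, was at 15.4, 15.9 and 8.98 FPKM in the anti-CD3 libraries and 0.381, 0.3301 and 0.171 in the combination libraries (log2 fold change -5.63, SE 0.44, adjusted p = 8e-06). *Csf2*, which encodes GM-CSF, was at 66.6, 27.7 and 22.6 FPKM with anti-CD3 alone and 8.91, 1.47 and 1.404 with the combination (log2 fold change -3.48, SE 0.70, adjusted p = 0.00175); combination library 1 was the highest of its group. *Il2*, the T-cell growth factor, was at 15.6, 32.4 and 46.9 FPKM in the anti-CD3 libraries and 3.16, 4.82 and 3.64 in the combination libraries (log2 fold change -3.22, SE 0.50, adjusted p = 0.000342), with no overlap between the groups.

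The cytokines that rose were fewer. *Ltb*, lymphotoxin beta, was at 74.3, 90.1 and 41.2 FPKM with anti-CD3 alone and 402, 262 and 256 with the combination (log2 fold change 1.95, SE 0.37, adjusted p = 0.00129). *Il17f*, a Th17 cytokine, was at 0.462, 0.08905 and 0.0927 FPKM in the anti-CD3 libraries and 12.2, 4.397 and 5.69 in the combination libraries (log2 fold change 4.89, SE 1.03, adjusted p = 0.00248), with the highest level in combination library 1. *Il17a* was at 0.664, 0.129 and 0.562 FPKM with anti-CD3 alone and 6.603, 2.28 and 2.29 with the combination (log2 fold change 2.82, SE 0.96, adjusted p = 0.0324), and *Areg*, amphiregulin, had a log2 fold change of 2.03 (adjusted p = 0.0496). The calls for *Il17a* and *Areg* depended on single libraries. *Il17a* was no longer called without anti-CD3 library 2 (adjusted p = 0.102) or 3 (0.0697) or combination library 1 (0.119), and *Areg* without any of the 6. Leaving out anti-CD3 library 2 or 3 left 2 cytokines called higher. *Ifng*, the Th1 cytokine, was at 3.83, 2.503 and 3.45 FPKM in the anti-CD3 libraries and 3.34, 11.1 and 12.99 in the combination libraries (adjusted p = 0.103), and *Il10*, which restrains inflammation, at 107, 29.7 and 28.2 FPKM with anti-CD3 alone and 22.4, 35.3 and 38.02 with the combination (adjusted p = 0.253). Neither was called changed, and the groups overlapped for both; without combination library 1, which was the lowest of its group, *Ifng* was called higher (log2 fold change 1.66, adjusted p = 0.0353). *Tnf* was at 13.9, 13.8 and 15.2 FPKM in the anti-CD3 libraries and 24.3, 28.5 and 29.5 in the combination libraries, and its log2 fold change of 0.74 (adjusted p = 0.00223) did not reach 2-fold although the groups did not overlap.

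The promoters of *Il9* and *Il13* are printed because these genes had the deepest falls among the cytokines with a promoter sequence at hand, and that of *Ms4a4b* because it was the most abundant of the 10 genes with the largest rises. Sequences are from RefSeq (GRCm38.p6), on the strand of the gene, 250 bases before to 50 bases after its start. Capitals mark the letters of an NFAT core (GGAAAA, both strands searched) and of an AP-1 site (TGANTCA, which reads the same on both strands). The *Il9* promoter lies at chr13:56482208-56482507 on the minus strand, with NFAT cores at bases 23 to 28 and 201 to 206 and an AP-1 site at bases 111 to 117. The *Il13* promoter lies at chr11:53634653-53634952 on the minus strand, with an NFAT core at bases 119 to 124. The *Ms4a4b* promoter lies at chr19:11443308-11443607 on the plus strand, with an AP-1 site at bases 273 to 279.
Il9: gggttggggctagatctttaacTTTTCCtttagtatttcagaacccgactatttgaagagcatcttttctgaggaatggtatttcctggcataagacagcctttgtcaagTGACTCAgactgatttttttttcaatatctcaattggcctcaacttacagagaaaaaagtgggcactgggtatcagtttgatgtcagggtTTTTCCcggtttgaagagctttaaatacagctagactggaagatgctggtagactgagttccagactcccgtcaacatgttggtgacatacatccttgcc
Il13: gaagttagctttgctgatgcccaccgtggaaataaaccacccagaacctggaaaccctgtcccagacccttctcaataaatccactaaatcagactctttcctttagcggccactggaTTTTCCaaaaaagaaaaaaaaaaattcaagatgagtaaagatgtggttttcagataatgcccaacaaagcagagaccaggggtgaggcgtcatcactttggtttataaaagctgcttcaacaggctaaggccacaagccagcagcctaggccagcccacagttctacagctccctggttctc
Ms4a4b: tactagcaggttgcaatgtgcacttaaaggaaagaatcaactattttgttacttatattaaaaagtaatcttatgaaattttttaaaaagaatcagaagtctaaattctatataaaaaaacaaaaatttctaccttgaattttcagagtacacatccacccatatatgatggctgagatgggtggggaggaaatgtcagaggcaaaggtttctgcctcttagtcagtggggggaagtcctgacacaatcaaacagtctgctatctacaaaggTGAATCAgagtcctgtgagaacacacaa

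Over all genes, an NFAT core stood in 24.2% of the 15025 tested genes with a promoter, in 25.5% of the 2289 genes called higher and in 23.2% of the 1714 called lower. The AP-1 site stood in 7.17%, 8.65% and 7.99% of the same sets, and the E-box CACGTG, bound by MYC among others, in 10.3%, 8.61% and 12.8%. The promoter of *Il21*, another cytokine gene that fell, held NFAT cores at bases 49 to 54 and 133 to 138. Of the 2 promoters listed for *Il4*, 1 held 4 NFAT cores and the other held none of the letters searched. The promoters of *Il3*, *Il5* and *Csf2* held none of these letters in the 300 bases searched.

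Chemokines leaned upward. Of 13 tested, 7 rose and 2 fell, with a median log2 fold change of 1.66. The number called higher was 5 without anti-CD3 library 2, combination library 1 or combination library 2. *Cxcl10*, an interferon-induced ligand of CXCR3, was at 0.532, 0.353 and 0.4404 FPKM with anti-CD3 alone and 5.18, 6.24 and 6.91 with the combination (log2 fold change 3.54, SE 0.60, adjusted p = 0.000555). *Cxcl2*, which attracts neutrophils, was at 0.0246, 0 and 0 FPKM in the anti-CD3 libraries and 2.97, 0.961 and 1.17 in the combination libraries (log2 fold change 7.06, SE 1.61, adjusted p = 0.00396). Both were low with anti-CD3 alone, and no combination library overlapped the anti-CD3 libraries. *Ccl4*, which attracts T cells and monocytes, was at 58.8, 47.1 and 39.8 FPKM with anti-CD3 alone and 14.8, 19.8 and 18.9 with the combination (log2 fold change -1.66, SE 0.27, adjusted p = 0.000472), and the related *Ccl3* at 50.5, 54.8 and 52.3 FPKM in the anti-CD3 libraries and 23.3, 32.1 and 33.3 in the combination libraries (log2 fold change -1.04, SE 0.33, adjusted p = 0.0243). Without anti-CD3 library 2 or combination library 1 or 2, *Ccl3* was no longer called (adjusted p = 0.0614, 0.0806 and 0.0513), which left 1 chemokine called lower, as did leaving out the TMM factors. *Ccl20*, the ligand of CCR6, was at 0.221, 0.0805 and 0.4004 FPKM with anti-CD3 alone and 2.84, 0.582 and 1.92 with the combination (log2 fold change 2.69, SE 0.79, adjusted p = 0.0167) and lost its call without anti-CD3 library 2 (adjusted p = 0.0607) or combination library 1 (0.0618).

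Of 13 genes of granzymes and killing, 4 fell and 1 rose. *Gzmb*, granzyme B, was at 425, 501 and 415 FPKM in the anti-CD3 libraries and 164, 50.5 and 51.3 in the combination libraries (log2 fold change -2.53, SE 0.57, adjusted p = 0.00357). *Nkg7*, a protein of cytotoxic granules, was at 96.6, 132 and 102 FPKM with anti-CD3 alone and 8.1000, 8.63 and 8.08 with the combination (log2 fold change -3.94, SE 0.32, adjusted p = 8.7e-06). *Prf1*, perforin, was at 3.72, 4.19 and 3.63 FPKM in the anti-CD3 libraries and 1.25, 0.571 and 0.646 in the combination libraries (log2 fold change -2.42, SE 0.35, adjusted p = 0.0002). No combination library of the 3 genes reached an anti-CD3 library, and combination library 1 was the highest of its group for *Gzmb* and *Prf1*. *Gzmk* rose from a low level, at 0.0669, 0 and 0.0779 FPKM with anti-CD3 alone and 1.098, 0.873 and 0.394 with the combination (log2 fold change 3.61, SE 1.09, adjusted p = 0.0181), a call lost without anti-CD3 library 2 (adjusted p = 0.0503) or combination library 1 (0.0568). Without anti-CD3 library 3 or without TMM factors 2 genes were called higher, and with DESeq2 3 were, with *Gzmc* and *Serpinb9* at log2 fold changes of 2.53 and 1.04, as they were with replicate number as a block (1.98 and 1.05).

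**Figure D3:**
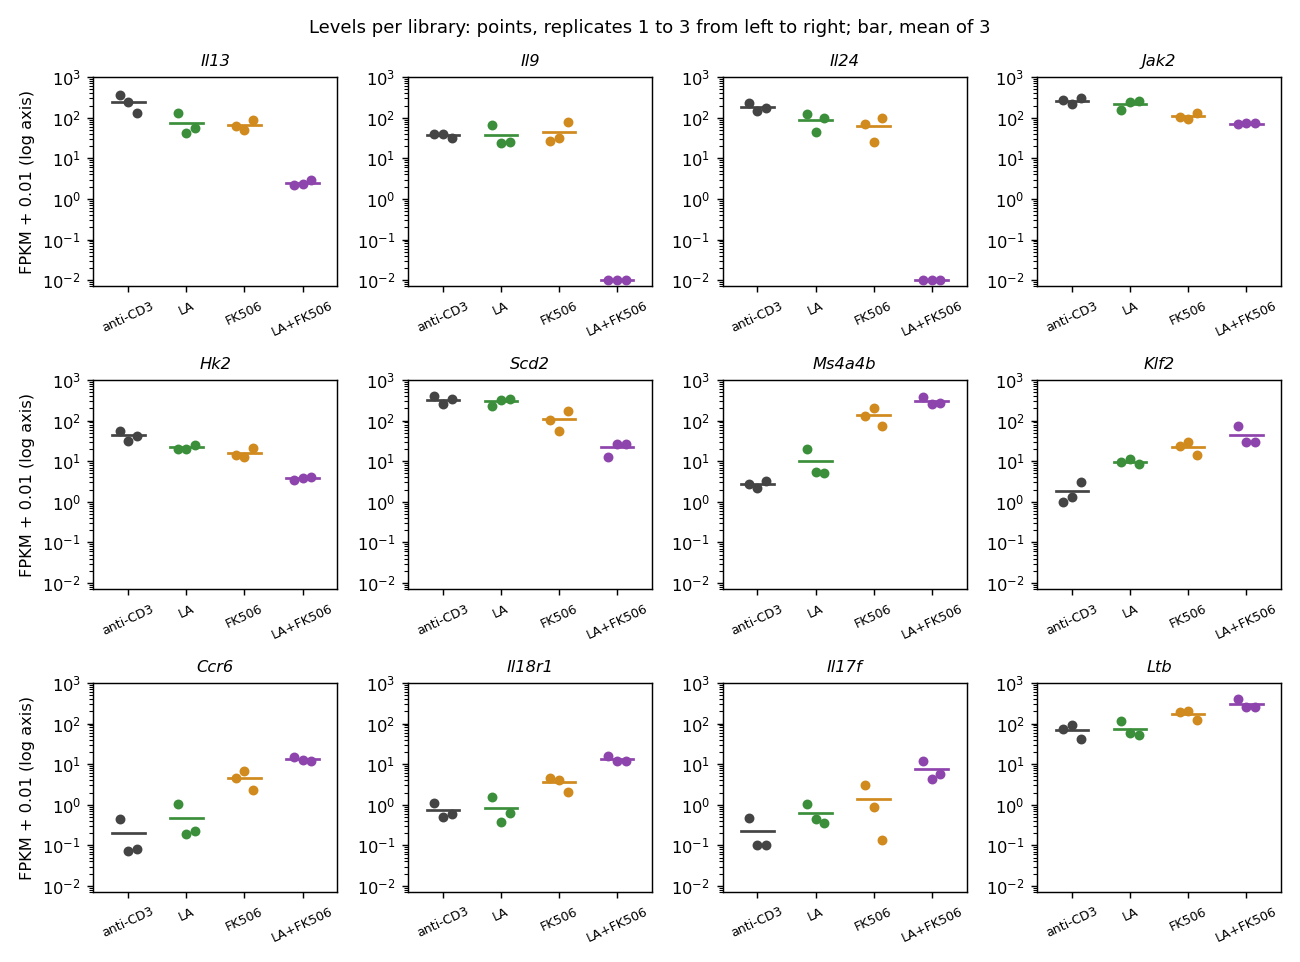
FPKM + 0.01 (y axis, log scale) of 12 genes in each library of the 4 treatment groups, 1 panel for each gene (points, libraries 1 to 3 from left to right; bars, means; LA, *L. acidophilus*). The combination libraries (LA+FK506) lie below the anti-CD3 libraries for *Il13*, *Il9*, *Il24*, *Jak2*, *Hk2* and *Scd2* and above them for the other 6 genes; *Il9* and *Il24* are at 0 FPKM with the combination.

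Calcineurin and NFAT carry the calcium signal. Of 21 calcineurin, NFAT and Egr genes tested, 4 rose and none fell (1 fell without anti-CD3 library 1), a share called close to the 24.6% over all genes, with a median log2 fold change of 0.10. The catalytic subunits *Ppp3ca* and *Ppp3cb* were at log2 fold changes of -0.10 (adjusted p = 0.623) and 0.06 (adjusted p = 0.585). *Fkbp1a*, the immunophilin that binds FK506, was at 158, 227 and 197 FPKM in the anti-CD3 libraries and 122, 122 and 129 in the combination libraries, and its log2 fold change of -0.83 (adjusted p = 0.000464) was short of 2-fold. *Nfatc1*, an NFAT factor that is itself induced on activation, was at 36.9, 28.8 and 41.8 FPKM with anti-CD3 alone and 79.1, 96.2 and 97.98 with the combination (log2 fold change 1.17, SE 0.13, adjusted p = 4.3e-05). *Nr4a1*, an early gene of receptor signaling, was at 23.1, 58.9 and 53.1 FPKM in the anti-CD3 libraries and 116, 139.7 and 142 in the combination libraries (log2 fold change 1.35, SE 0.31, adjusted p = 0.00423). *Dgka* and *Dgkz*, kinases that remove diacylglycerol and limit receptor signaling, had log2 fold changes of 1.09 (adjusted p = 0.000208) and 1.14 (adjusted p = 0.000142). All combination libraries lay above all anti-CD3 libraries for these 4 genes, and *Dgka* fell just short of 2-fold without anti-CD3 library 2 (log2 fold change 0.999). *Rcan1*, a calcineurin target in many cells, was at 3.76, 5.03 and 3.69 FPKM with anti-CD3 alone and 4.91, 5.53 and 5.18 with the combination (adjusted p = 0.652). For the 20 genes of the T-cell receptor complex and its proximal signaling, the median was 0.11. None rose with edgeR and TMM factors, against 1 without these factors and 4 with limma on log2(FPKM + 1), and *Themis* was called lower (log2 fold change -1.07, SE 0.34, adjusted p = 0.0219), a call lost without anti-CD3 library 1 (adjusted p = 0.0996) or combination library 2 (0.0704) or 3 (0.0552). Of 11 ERK feedback genes, *Dusp1* rose (log2 fold change 1.09, SE 0.23, adjusted p = 0.00279). It did not reach 2-fold without anti-CD3 library 2 (log2 fold change 0.95) or combination library 1 (0.80), and without the latter none was called. Without anti-CD3 library 1 or combination library 2 or 3, 2 were. Without TMM factors 3 were called higher, with *Dusp5* and *Dusp10* at log2 fold changes of 1.10 and 1.07.

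Among 15 AP-1 family genes, 5 fell and 3 rose. *Batf3*, a partner of JUN proteins, was at 47.6, 61.7 and 30.5 FPKM in the anti-CD3 libraries and 4.796, 3.23 and 2.32 in the combination libraries (log2 fold change -3.95, SE 0.46, adjusted p = 5.11e-05). *Batf*, which acts with IRF4 in effector cells, was at 218, 402 and 139 FPKM with anti-CD3 alone and 97.2, 63.5 and 65.04 with the combination (log2 fold change -1.97, SE 0.35, adjusted p = 0.000842). *Junb* was at 331, 486 and 325 FPKM in the anti-CD3 libraries and 165, 144 and 143 in the combination libraries (log2 fold change -1.55, SE 0.17, adjusted p = 3.63e-05). These 3 genes did not overlap between the groups. *Atf3* and *Fosl2* also fell, with log2 fold changes of -2.48 and -1.39 (adjusted p = 3.08e-05 and 9.66e-05). *Fosb* was at 0.0923, 0.336 and 0.317 FPKM with anti-CD3 alone and 1.93, 3.34 and 3.903 with the combination (log2 fold change 3.39, SE 0.45, adjusted p = 0.000112), and *Fos* and *Bach1* rose with log2 fold changes of 1.10 and 1.73 (adjusted p = 0.00372 and 2.78e-05), *Fos* short of 2-fold without anti-CD3 library 2 (0.93). The median of the family was -0.06, and 0.15 without TMM factors.

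Of 20 JAK, STAT and SOCS genes, 4 fell and 1 rose. *Jak2*, a kinase of the IL-12, IL-23 and interferon gamma receptors, was at 269, 216 and 309 FPKM in the anti-CD3 libraries and 69.6, 72.7 and 72.97 in the combination libraries (log2 fold change -2.11, SE 0.21, adjusted p = 2.06e-05). *Socs3*, which limits STAT3 signaling, was at 78.2, 45.4 and 53.3 FPKM with anti-CD3 alone and 29.4, 14.6 and 13.7 with the combination (log2 fold change -1.86, SE 0.32, adjusted p = 0.000694). *Socs1*, which limits interferon signaling, was at 109, 241 and 129 FPKM in the anti-CD3 libraries and 86.9, 59.5 and 52.4 in the combination libraries (log2 fold change -1.45, SE 0.30, adjusted p = 0.00195). *Stat5a*, the transducer of IL-2, also fell (log2 fold change -1.04, SE 0.12, adjusted p = 3.67e-05), by 0.95 without anti-CD3 library 1. The groups did not overlap for these 4 genes. *Jak1* was the gene that rose (log2 fold change 1.09, SE 0.13, adjusted p = 5.02e-05); without anti-CD3 library 2 or combination library 1 its log2 fold change was 0.99 in each case and none was called higher. Without TMM factors 4 members of the list were called higher.

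The factors that set T-cell lineages moved in both directions, 7 of 21 rising and 5 falling. *Gata3*, the Th2 factor, was at 88.5, 74.8 and 83.9 FPKM with anti-CD3 alone and 31.1, 29.4 and 31.5 with the combination (log2 fold change -1.63, SE 0.13, adjusted p = 8.18e-06). *Irf4*, induced by receptor signaling, was at 217, 192 and 257 FPKM in the anti-CD3 libraries and 69.9, 116 and 119.6 in the combination libraries (log2 fold change -1.33, SE 0.21, adjusted p = 0.000366). *Runx3* and *Zeb2* fell as well (-1.15 and -1.05 on the log2 scale, adjusted p = 0.000312 and 0.00167), short of 2-fold without anti-CD3 library 1 (-0.93) and 3 (-0.89). The fifth was *Tbx21*, the Th1 factor T-bet, with a log2 fold change of -2.33 (adjusted p = 6.75e-05). *Rora*, a nuclear receptor of Th17 cells, was at 0.667, 0.386 and 0.571 FPKM with anti-CD3 alone and 7.61, 10.3 and 10.6 with the combination (log2 fold change 3.91, SE 0.38, adjusted p = 1.86e-05). *Eomes*, a T-box factor of memory and cytotoxic cells, was at 0.773, 0.444 and 0.635 FPKM in the anti-CD3 libraries and 13.1, 5.95 and 6.34 in the combination libraries (log2 fold change 3.56, SE 0.43, adjusted p = 5.97e-05), with the highest level in combination library 1. *Bcl6*, the factor of follicular helper cells, was at 2.96, 2.68 and 2.97 FPKM with anti-CD3 alone and 12.01, 13.95 and 13.8 with the combination (log2 fold change 2.16, SE 0.21, adjusted p = 1.89e-05). *Tox* and *Tox2* had log2 fold changes of 2.39 and 2.90 (adjusted p = 0.000127 and 0.000249), and *Id3*, which restrains E proteins, one of 2.56 (adjusted p = 5.13e-05). No combination library overlapped an anti-CD3 library for these 6 genes. Without TMM factors 3 members of the list were called lower.

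Of 22 Treg genes, 13 rose and 1 fell, with a median log2 fold change of 1.45. The study named several of them on these samples, so the list's direction is not independent evidence. *Klrg1*, a receptor of differentiated Treg cells, was at 0.288, 0.344 and 0.309 FPKM in the anti-CD3 libraries and 19.3, 10.4 and 11.3 in the combination libraries (log2 fold change 5.24, SE 0.98, adjusted p = 0.00116). *Itgae*, which encodes CD103, was at 2.78, 0.7204 and 0.975 FPKM with anti-CD3 alone and 27.2, 21.2 and 20.1 with the combination (log2 fold change 3.70, SE 0.75, adjusted p = 0.00192). *Lrrc32*, the surface anchor of latent TGF-beta, was at 3.796, 2.07 and 3.13 FPKM in the anti-CD3 libraries and 31.5, 28.4 and 30.03 in the combination libraries (log2 fold change 3.11, SE 0.37, adjusted p = 5.97e-05). For each, the lowest combination library was more than 3 times the highest anti-CD3 library. *Swap70*, *Entpd1* and *Gpr83* rose with log2 fold changes of 1.88, 1.73 and 1.17 (adjusted p = 6e-05, 0.00895 and 0.00291). *Il2ra*, the IL-2 receptor alpha chain of Treg cells and of activated T cells alike, was the member that fell, at 469, 414 and 548 FPKM with anti-CD3 alone and 215, 258 and 262 with the combination (log2 fold change -1.17, SE 0.16, adjusted p = 0.000145). Without TMM factors no Treg gene was called lower. *Ctla4*, an inhibitory receptor, was at 106, 88.5 and 103 FPKM in the anti-CD3 libraries and 209, 186 and 192 in the combination libraries and was not called (adjusted p = 0.0639). *Tnfrsf18*, which encodes GITR, was at 308, 384 and 266 FPKM with anti-CD3 alone and 263, 185 and 184 with the combination and was not called either, but was without combination library 1 (log2 fold change -1.03, adjusted p = 0.00142).

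Among 18 genes of the TGF-beta pathway, 7 rose and 3 fell. The receptors *Tgfbr1* and *Tgfbr2* rose, *Tgfbr2* from 11.4, 10.7 and 14.9 to 45.99, 41.5 and 41.8 FPKM (log2 fold change 1.61, SE 0.13, adjusted p = 9.42e-06). The inhibitors *Smad7* and *Skil*, both induced by TGF-beta, had log2 fold changes of 1.55 and 1.54 (adjusted p = 0.000106 and 1.14e-05). The ligand *Tgfb1* was at 91.3, 102 and 97.97 FPKM in the anti-CD3 libraries and 109, 132 and 132 in the combination libraries (adjusted p = 0.258), and *Tgfb3*, a minor ligand here, was at 1.19, 0.459 and 0.8699 FPKM with anti-CD3 alone and 0.134, 0.177 and 0.145 with the combination (log2 fold change -2.64, SE 0.48, adjusted p = 0.000886). *Ltbp3*, which stores latent TGF-beta, fell (log2 fold change -2.37, SE 0.37, adjusted p = 0.000336). The groups overlapped for none of the genes said to change in this paragraph.

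Cytokine receptors shifted with 10 of 26 rising and 6 falling. Without TMM factors 13 were called higher and 3 lower, and limma on log2(FPKM + 1) called 1 lower. *Il12rb2*, the inducible chain of the IL-12 receptor, was at 44.6, 42.3 and 69.8 FPKM in the anti-CD3 libraries and 2.66, 2.28 and 2.999 in the combination libraries (log2 fold change -4.13, SE 0.38, adjusted p = 1.35e-05). *Il23r*, the IL-23 receptor of Th17 cells, was at 0.183, 0.0897 and 0.148 FPKM with anti-CD3 alone and 4.699, 3.64 and 4.19 with the combination (log2 fold change 4.65, SE 0.55, adjusted p = 5.63e-05). *Il18r1* was at 1.07, 0.501 and 0.587 FPKM in the anti-CD3 libraries and 15.6, 11.9 and 11.9 in the combination libraries (log2 fold change 4.08, SE 0.53, adjusted p = 0.000102). Each of these 3 genes kept the groups apart by more than 10-fold between the nearest libraries. *Il18rap* and *Il1r1* also rose, with log2 fold changes of 4.04 and 2.98 (adjusted p = 7.37e-06 and 0.000305). *Ifngr1*, the ligand-binding chain of the interferon gamma receptor, was at 16.9, 13.7 and 16.7 FPKM with anti-CD3 alone and 165, 83.01 and 79.4 with the combination (log2 fold change 2.60, SE 0.42, adjusted p = 0.000402), and combination library 1 was the highest. *Il7r*, the receptor for the survival cytokine IL-7, rose (log2 fold change 1.17, SE 0.18, adjusted p = 0.000279), and *Il4ra* and *Il21r* fell (-1.11 and -1.14 on the log2 scale, adjusted p = 0.000183 and 1.04e-05), *Il4ra* by 0.99 without combination library 3. *Il1rl1*, the IL-33 receptor, was called higher (log2 fold change 2.37, SE 0.77, adjusted p = 0.0264) but not without anti-CD3 library 2 or 3 or combination library 1 (adjusted p = 0.0876, 0.0853 and 0.0712).

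Of 16 inhibitory receptors and ligands, 5 rose and 3 fell. *Cd96* was at 4.797, 5.44 and 7.19 FPKM in the anti-CD3 libraries and 41.6, 25.1 and 24.1 in the combination libraries (log2 fold change 2.19, SE 0.26, adjusted p = 5.82e-05). *Havcr2*, which encodes TIM-3, was at 0.748, 0.805 and 1.04 FPKM with anti-CD3 alone and 3.72, 3.77 and 3.998 with the combination (log2 fold change 1.95, SE 0.20, adjusted p = 2.72e-05). *Lair1*, a collagen receptor, was at 1.44, 10.3 and 9.88 FPKM in the anti-CD3 libraries and 0.522, 0.4898 and 0.5901 in the combination libraries (log2 fold change -3.92, SE 0.85, adjusted p = 0.00298), and anti-CD3 library 1 lay closest to the combination. *Pdcd1*, *Lag3* and *Ctla4* were not called changed. Without anti-CD3 library 1, 5 members were called lower. Of 17 costimulatory receptors and ligands, 5 fell and 3 rose. *Tnfsf14*, which encodes LIGHT, was at 11.8, 21.3 and 15.4 FPKM with anti-CD3 alone and 2.77, 2.49 and 2.76 with the combination (log2 fold change -2.80, SE 0.32, adjusted p = 4.8e-05), and *Tnfrsf4*, which encodes OX40, at 356, 543 and 344 FPKM in the anti-CD3 libraries and 221, 170.3 and 181 in the combination libraries (log2 fold change -1.33, SE 0.21, adjusted p = 0.000328). *Cd40lg*, the CD40 ligand that helps B cells, was at 16.9, 20.7 and 22.4 FPKM with anti-CD3 alone and 13.3, 9.14 and 9.45 with the combination (log2 fold change -1.11, SE 0.22, adjusted p = 0.00175). *Cd27* rose (log2 fold change 1.35, SE 0.20, adjusted p = 0.000236). The groups did not overlap for these 4 genes. Without TMM factors 3 of the 17 were called lower.

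Among 13 follicular helper genes, 8 rose and 2 fell (1 without TMM factors). The members that fell were *Cd40lg*, given above, and *Il21*, the cytokine of these cells, at 57.4, 29.97 and 40.5 FPKM in the anti-CD3 libraries and 0.942, 1.11 and 1.04 in the combination libraries (log2 fold change -5.56, SE 0.47, adjusted p = 9.97e-06). *Slamf6*, a receptor that steadies contact with B cells, was at 10.9, 10.5 and 16.2 FPKM with anti-CD3 alone and 69.7, 84.5 and 86.1 with the combination (log2 fold change 2.60, SE 0.27, adjusted p = 2.71e-05), and *Cxcr5*, the receptor that leads cells into follicles, at 6.37, 5.34 and 3.84 FPKM in the anti-CD3 libraries and 11.02, 12.8 and 12.6 in the combination libraries (log2 fold change 1.01, SE 0.24, adjusted p = 0.00484). *Cxcr5* is also expressed by B cells, and it fell short of 2-fold without anti-CD3 library 3 (log2 fold change 0.81) or combination library 2 (0.98).

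**Figure D4:**
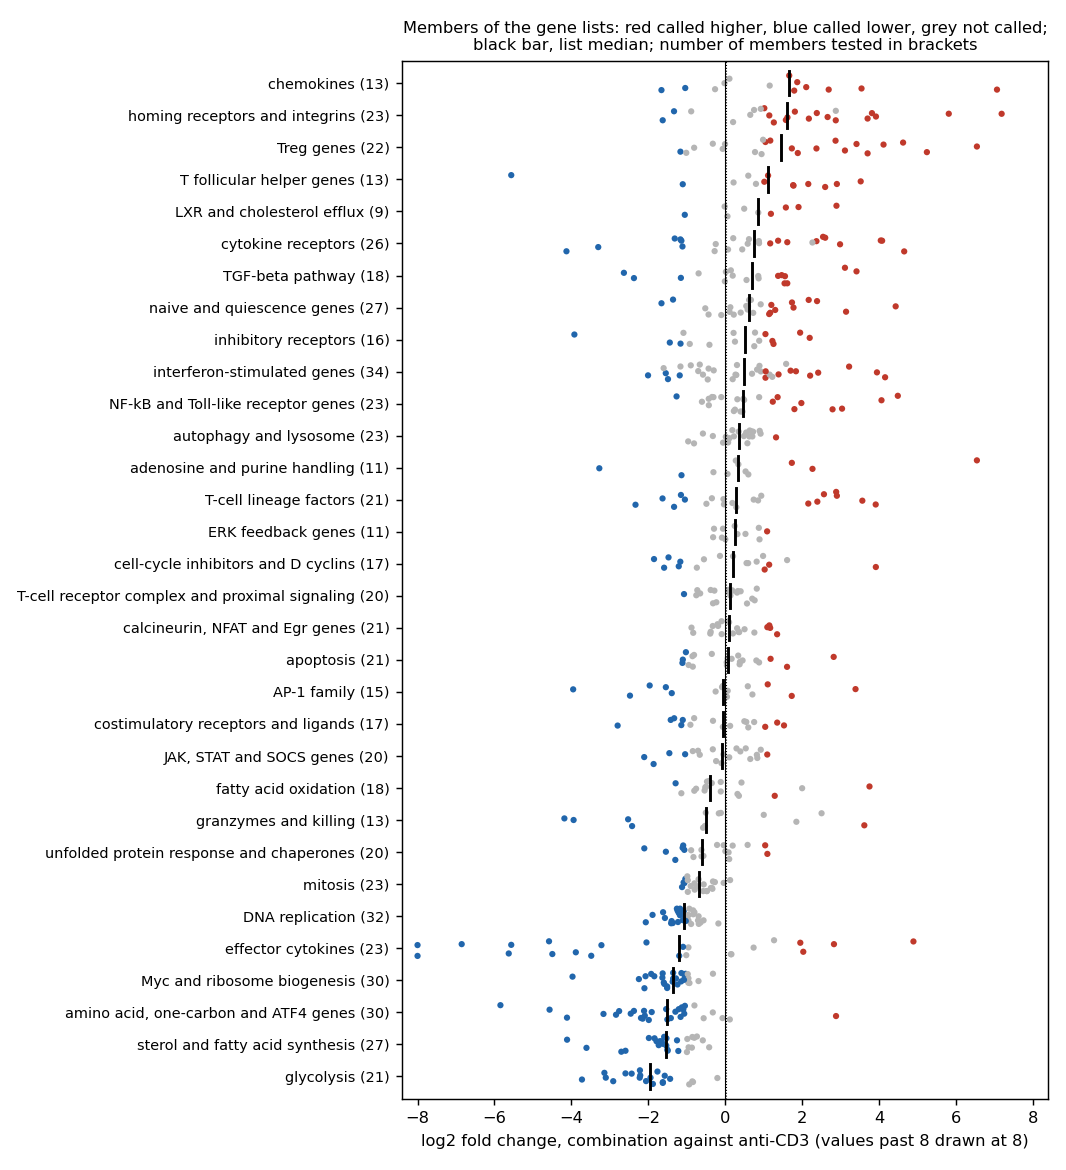
Log2 fold change (x axis, combination over anti-CD3) of each tested member of the 32 gene lists, 1 row per list (red, called higher; blue, called lower; grey, not called; black bar, list median). Glycolysis lies to the left with a median of -1.94 and no member called higher, and homing receptors and integrins lie to the right with a median of 1.62.

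Genes of naive and quiescent T cells tended to rise, 10 of 27 with 2 falling, and a median log2 fold change of 0.62. *Klf2*, which maintains quiescence and exit from lymph nodes, was at 0.995, 1.34 and 3.11 FPKM with anti-CD3 alone and 73.6, 29.1 and 29.2 with the combination (log2 fold change 4.43, SE 0.50, adjusted p = 4.48e-05). Its target *S1pr1*, the receptor for exit, was at 3.18, 3.597 and 4.41 FPKM in the anti-CD3 libraries and 60.3, 25.9 and 25.9 in the combination libraries (log2 fold change 3.14, SE 0.44, adjusted p = 0.000159). Combination library 1 held more than 2 times the level of the other combination libraries for both genes, and all 3 lay above the anti-CD3 libraries. *Tcf7*, which encodes TCF-1, was at 35.3, 56.98 and 66.9 FPKM with anti-CD3 alone and 259, 195 and 194 with the combination (log2 fold change 1.77, SE 0.24, adjusted p = 0.000121). *Txnip*, an inhibitor of glucose uptake, was at 17.4, 23.4 and 28.8 FPKM in the anti-CD3 libraries and 153, 101 and 103 in the combination libraries (log2 fold change 2.17, SE 0.23, adjusted p = 2.99e-05). *Pik3ip1*, an inhibitor of phosphoinositide 3-kinase, was at 2.57, 1.24 and 1.995 FPKM with anti-CD3 alone and 23.4, 14.6 and 15.97 with the combination (log2 fold change 2.38, SE 0.31, adjusted p = 0.000105), and *Btg1* and *Cdkn1b*, which restrain proliferation, rose by 1.73 and 1.14 on the log2 scale (adjusted p = 1.4e-05 and 2.24e-05). *Ccr7*, the homing receptor for lymph nodes, was at 34.000, 133 and 93.8 FPKM in the anti-CD3 libraries and 251, 159.7 and 156 in the combination libraries and was not called. Anti-CD3 library 1 was the lowest, and *Ccr7* was called higher without anti-CD3 library 2 (log2 fold change 1.41, adjusted p = 0.00899). *Satb1* and *Treml2* fell (-1.36 and -1.66, adjusted p = 4.93e-05 and 0.00213).

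Among homing receptors and integrins, 15 of 23 rose and 2 fell, the largest share of rises among the 32 pathway lists. This rank depended on single libraries. Without anti-CD3 library 1, 15 of 23 rose against 15 of 22 Treg genes. Without combination library 2 or 3, 13 and 14 of 23 rose against 14 of 22 Treg genes each time. *Ccr6*, the CCL20 receptor of Th17 cells and B cells, was at 0.429, 0.0615 and 0.0715 FPKM with anti-CD3 alone and 14.9, 12.9 and 12.1 with the combination (log2 fold change 5.81, SE 0.79, adjusted p = 0.000139). *Cxcr6*, a receptor of tissue-resident cells, was at 1.71, 0.794 and 0.843 FPKM in the anti-CD3 libraries and 27.1, 16.2 and 15.7 in the combination libraries (log2 fold change 3.92, SE 0.69, adjusted p = 0.000767). *Cxcr3*, the receptor of CXCL10, was at 4.95, 6.37 and 7.103 FPKM with anti-CD3 alone and 26.5, 35.6 and 33.5 with the combination (log2 fold change 2.17, SE 0.15, adjusted p = 5.9e-06). The lowest combination library was more than 3 times the highest anti-CD3 library for each. *Itga4* was at 5.21, 2.98 and 5.57 FPKM in the anti-CD3 libraries and 30.96, 33.3 and 35.5 in the combination libraries (log2 fold change 2.66, SE 0.32, adjusted p = 5.83e-05), and *Itgb7*, its partner in the gut-homing integrin, at 39.7, 29.5 and 31.8 FPKM with anti-CD3 alone and 174, 91.6 and 89.3 with the combination (log2 fold change 1.62, SE 0.28, adjusted p = 0.000667). *Ccr4*, a receptor of Th2 cells and Treg cells, was at 91.3, 141 and 152 FPKM in the anti-CD3 libraries and 49.1, 63.9 and 64.1 in the combination libraries (log2 fold change -1.33, SE 0.18, adjusted p = 0.000118).

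Glycolysis fell nearly as a whole. Of 21 genes, 17 fell and none rose, with a median log2 fold change of -1.94, and 17 were called lower without TMM factors too. Together these 21 genes took 2.25%, 2.58% and 1.80% of all counts with anti-CD3 alone and 0.661%, 0.623% and 0.614% with the combination. *Hk2*, the inducible hexokinase, was at 56.6, 30.9 and 41.7 FPKM with anti-CD3 alone and 3.47, 3.86 and 4.07 with the combination (log2 fold change -3.73, SE 0.26, adjusted p = 5.9e-06). *Slc2a3*, a high-affinity glucose transporter, was at 209, 55.4 and 82.2 FPKM in the anti-CD3 libraries and 18.1, 14.7 and 14.7 in the combination libraries (log2 fold change -3.14, SE 0.46, adjusted p = 0.000204), and anti-CD3 library 1 was the highest. Among the abundant enzymes, *Pkm* was at 1529.7, 2728 and 1425 FPKM with anti-CD3 alone and 451, 469.9 and 470.1 with the combination (log2 fold change -2.22, SE 0.26, adjusted p = 5.1e-05), and *Ldha*, which makes lactate, at 1329.7, 1977 and 1254 FPKM in the anti-CD3 libraries and 439, 355 and 344 in the combination libraries (log2 fold change -2.21, SE 0.22, adjusted p = 1.99e-05). *Gapdh*, often used as a reference gene, was at 988, 1035 and 851 FPKM with anti-CD3 alone and 278, 261 and 261 with the combination (log2 fold change -2.06, SE 0.18, adjusted p = 1e-05). The 4 members not called were *Hk1*, *Gpi1*, *Pfkm* and *Pfkfb3*, at log2 fold changes of -0.94, -0.84, -0.86 and -0.21; without anti-CD3 library 2 *Hk1* was called lower (-1.06). Genes known as hypoxia responses were looked at after the values were seen. *Vegfa* was at 28.02, 11.8 and 15.999 FPKM in the anti-CD3 libraries and 0.834, 0.745 and 0.577 in the combination libraries (log2 fold change -4.89, SE 0.41, adjusted p = 9.31e-06), and *Egln3*, a prolyl hydroxylase, at 98.6, 20.1 and 34.9 FPKM with anti-CD3 alone and 6.32, 4.43 and 4.49 with the combination (log2 fold change -3.54, SE 0.55, adjusted p = 0.000321).

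Amino acid, one-carbon and ATF4 genes fell in 24 of 30 cases, with a median of -1.52. *Cth*, which makes cysteine from cystathionine, was at 14.1, 6.89 and 7.13 FPKM in the anti-CD3 libraries and 0.0996, 0.224 and 0.245 in the combination libraries (log2 fold change -5.85, SE 0.45, adjusted p = 7.8e-06). *Pycr1*, which makes proline, was at 5.47, 2.62 and 1.897 FPKM with anti-CD3 alone and 0.175, 0.117 and 0.197 with the combination (log2 fold change -4.57, SE 0.45, adjusted p = 1.88e-05). *Chac1*, which degrades glutathione and is an ATF4 target, was at 9.77, 8.601 and 5.24 FPKM in the anti-CD3 libraries and 0.704, 0.321 and 0.515 in the combination libraries (log2 fold change -4.12, SE 0.40, adjusted p = 1.92e-05). The lowest anti-CD3 library was more than 7 times the highest combination library for these 3 genes. *Asns*, asparagine synthetase, was at 48.96, 40.7 and 32.2 FPKM with anti-CD3 alone and 6.05, 7.15 and 7.71 with the combination (log2 fold change -2.76, SE 0.20, adjusted p = 6.51e-06), and *Shmt2*, the mitochondrial serine enzyme, at 152, 183 and 111 FPKM in the anti-CD3 libraries and 31.2, 31.1 and 32.1 in the combination libraries (log2 fold change -2.46, SE 0.18, adjusted p = 6.79e-06). The member that rose was *Slc7a11*, the cystine transporter, from a low level (0.202, 0.151 and 0.202 FPKM with anti-CD3 alone and 0.957, 1.88 and 1.92 with the combination; log2 fold change 2.88, SE 0.46, adjusted p = 0.000394). Without TMM factors 18 members were called lower.

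Sterol and fatty acid synthesis fell in 18 of 27 cases with no rise, and all 27 genes had combination libraries below the anti-CD3 libraries (24.7% over all genes tested), with a median of -1.53. *Scd2*, a fatty acid desaturase, was at 395, 262 and 333 FPKM in the anti-CD3 libraries and 12.7, 26.4 and 27.3 in the combination libraries (log2 fold change -4.11, SE 0.42, adjusted p = 2.49e-05). *Scd1* was at 48.6, 31.3 and 37.7 FPKM with anti-CD3 alone and 3.09, 4.08 and 3.98 with the combination (log2 fold change -3.61, SE 0.35, adjusted p = 1.82e-05). *Fdps*, of the mevalonate pathway, was at 179, 258 and 151 FPKM in the anti-CD3 libraries and 37.3, 35.2 and 33.3 in the combination libraries (log2 fold change -2.70, SE 0.22, adjusted p = 8.94e-06). The transcription factors of the pathway, *Srebf1* and *Srebf2*, had log2 fold changes of -0.74 and -0.58 (adjusted p = 0.000229 and 0.000409), short of 2-fold. *Fads2*, a desaturase outside the list and picked for its values, was at 40.8, 39.03 and 38.7 FPKM with anti-CD3 alone and 0.841, 1.25 and 1.15 with the combination (log2 fold change -5.41, SE 0.38, adjusted p = 5.9e-06). Among 9 LXR and efflux genes, 4 rose. With limma on log2(FPKM + 1) 2 were called higher, and *Abcg1* fell short of 2-fold (log2 fold change 0.95). *Mylip*, which degrades the LDL receptor, was at 0.4798, 0.627 and 0.796 FPKM in the anti-CD3 libraries and 6.57, 5.097 and 4.52 in the combination libraries (log2 fold change 2.89, SE 0.30, adjusted p = 2.75e-05), *Apoe* at 3.72, 2.59 and 3.35 FPKM with anti-CD3 alone and 16.4, 16.1 and 14.7 with the combination (log2 fold change 1.90, SE 0.19, adjusted p = 1.89e-05), and *Abcg1*, a sterol exporter, at 3.27, 2.57 and 3.07 FPKM in the anti-CD3 libraries and 9.19, 7.33 and 6.79 in the combination libraries (log2 fold change 1.19, SE 0.14, adjusted p = 5.91e-05). *Nr1h3*, which encodes LXR alpha, was called (log2 fold change 1.57, SE 0.48, adjusted p = 0.0204) but not without anti-CD3 library 3 or combination library 1 (adjusted p = 0.0689 and 0.125). The member called lower, *Lpcat3*, was at -0.94 without anti-CD3 library 2 and was not called without TMM factors.

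Fatty acid oxidation had 2 rises and 1 fall among 18 genes, with a median of -0.39. *Cpt1a*, the gate of mitochondrial fatty acid import, was at 14.1, 11.8 and 15.8 FPKM with anti-CD3 alone and 32.5, 42.5 and 42.1 with the combination (log2 fold change 1.28, SE 0.12, adjusted p = 1.79e-05). *Etfb*, an electron carrier of the pathway, was at 59.2, 81.5 and 58.6 FPKM in the anti-CD3 libraries and 32.3, 33.05 and 28.7 in the combination libraries (log2 fold change -1.29, SE 0.14, adjusted p = 3.95e-05). The groups did not overlap for either gene. The other rise, *Ppargc1a*, came from levels of at most 0.102 FPKM and lost its call without anti-CD3 library 1 or 2 or combination library 3 (adjusted p = 0.0634, 0.0720 and 0.0879). Without combination library 1, 2 members were called lower.

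**Figure D5:**
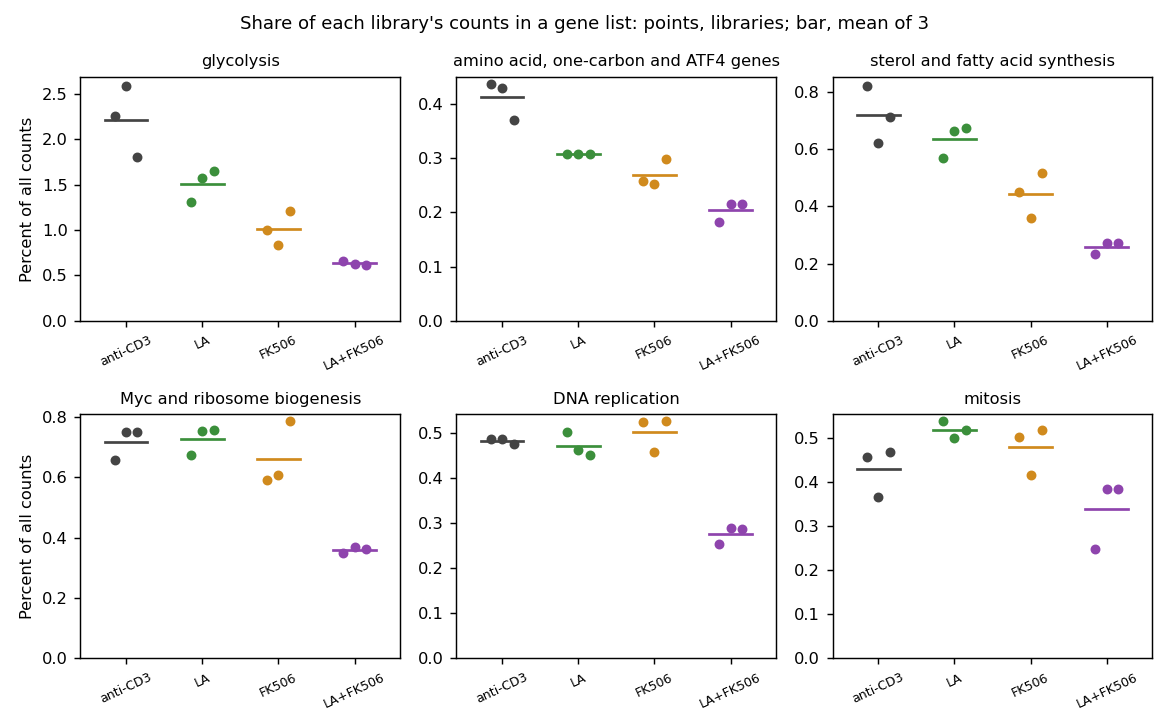
Share of all counts (y axis, percent) taken by the genes of glycolysis, amino acid and ATF4 metabolism, sterol and fatty acid synthesis, DNA replication, mitosis, and Myc and ribosome biogenesis in each of the 12 libraries, by treatment group (points, libraries; bars, means of 3; LA, *L. acidophilus*; LA+FK506, combination). Glycolysis takes 1.80% to 2.58% of counts with anti-CD3 alone and 0.614% to 0.661% with the combination; mitosis shows combination library 1, at 0.248%, below libraries 2 and 3, at 0.383% and 0.385%.

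Of 30 genes of MYC and ribosome biogenesis, 24 fell and none rose, with a median of -1.35, and all 30 had combination libraries below the anti-CD3 libraries (24.7% over all genes tested). *Myc* was at 93.96, 89.4 and 92.8 FPKM with anti-CD3 alone and 28.3, 24.5 and 22.6 with the combination (log2 fold change -2.07, SE 0.16, adjusted p = 7.65e-06). *Rrp12*, a ribosome export factor, was at 24.1, 24.7 and 22.7 FPKM in the anti-CD3 libraries and 6.08, 6.39 and 6.36 in the combination libraries (log2 fold change -2.10, SE 0.13, adjusted p = 5.9e-06), and *Rrp9*, of the U3 particle, at 38.1, 95.7 and 39.7 FPKM with anti-CD3 alone and 16.6, 12.8 and 13.1 with the combination (log2 fold change -2.25, SE 0.32, adjusted p = 0.000172). The list took 0.656% to 0.750% of counts with anti-CD3 alone and 0.349% to 0.368% with the combination. Cytosolic aminoacyl-tRNA synthetases, a family chosen after the data were seen, fell in 15 of 20 cases (median -1.10). *Yars*, the tyrosine enzyme, was at 52.4, 44.9 and 37.4 FPKM in the anti-CD3 libraries and 15.9, 16.4 and 15.6 in the combination libraries (log2 fold change -1.71, SE 0.14, adjusted p = 9.68e-06), and *Gars*, the glycine enzyme, at 109.5, 103 and 101 FPKM with anti-CD3 alone and 41.7, 44.4 and 43.7 with the combination (log2 fold change -1.48, SE 0.11, adjusted p = 6.87e-06). Without TMM factors 18 of the 30 and 7 of the 20 were called lower.

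Ribosomal and mitochondrial proteins, also families chosen after the data were seen, had smaller medians. Of 81 cytosolic ribosomal protein genes, 14 fell (median -0.68). The count depended on single libraries. It was 7 without anti-CD3 library 2, 22 without anti-CD3 library 3, 28 without combination library 1, 5 without combination library 2 or 3, and 6 without TMM factors. Of 36 complex I subunits of the respiratory chain, 9 fell (median -0.73), and 1, 15, 18, 5 and 5 did so without the same 5 libraries in turn, and 1 without TMM factors. Complex III and IV subunits fell in 10 of 20 cases, among them *Uqcrq* at 65.4, 108 and 50.8 FPKM in the anti-CD3 libraries and 29.9, 17.6 and 16.5 in the combination libraries (log2 fold change -2.02, SE 0.29, adjusted p = 0.000199). Of 39 proteasome subunits 9 fell, and 3 without anti-CD3 library 2; of 49 initiation factors 14 fell, and 7 without it. Without TMM factors 6 of the complex III and IV subunits, 5 proteasome subunits and 7 initiation factors were called lower. No member of these 5 families was called higher.

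DNA replication genes fell in 18 of 32 cases, with none rising and a median of -1.07. *Ccne1*, the cyclin of S-phase entry, was at 32.98, 35.7 and 32.8 FPKM with anti-CD3 alone and 9.22, 11.3 and 11.1 with the combination (log2 fold change -1.89, SE 0.13, adjusted p = 5.9e-06). *Cdc6*, which loads the replicative helicase, was at 15.6, 17.03 and 18.3 FPKM in the anti-CD3 libraries and 5.35, 7.196 and 6.95 in the combination libraries (log2 fold change -1.62, SE 0.13, adjusted p = 7.83e-06), and *Mcm3*, part of that helicase, at 115, 112 and 115 FPKM with anti-CD3 alone and 54.5, 61.5 and 58.2 with the combination (log2 fold change -1.18, SE 0.10, adjusted p = 1.15e-05). For 31 of the 32 genes all combination libraries lay below all anti-CD3 libraries, against 24.7% of all genes tested. Without TMM factors 10 were called lower. The list took 0.475% to 0.486% of counts with anti-CD3 alone and 0.253% to 0.289% with the combination.

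Mitosis genes moved less, 4 of 23 falling with a median of -0.69. *Aurkb*, a kinase of chromosome segregation, was at 59.003, 53.2 and 55.02 FPKM in the anti-CD3 libraries and 25.2, 32.4 and 31.4 in the combination libraries (log2 fold change -1.12, SE 0.12, adjusted p = 3.18e-05), and *Bub1b*, of the spindle checkpoint, at 45.004, 41.4 and 43.2 FPKM with anti-CD3 alone and 17.6, 26.7 and 26.4 with the combination (log2 fold change -1.08, SE 0.15, adjusted p = 0.000129). *Mki67*, the proliferation marker, was at 83.5, 50.3 and 90.2 FPKM in the anti-CD3 libraries and 53.7, 98.9 and 98.2 in the combination libraries (adjusted p = 0.911). The groups overlapped for *Mki67*, with combination libraries 2 and 3 above all anti-CD3 libraries in FPKM and library 1 near the lowest; its direction changed with several settings. The mitosis count was 1 without combination library 1, 7 without combination library 2 or 3, and 0 without TMM factors. Combination library 1 had the lowest level of the 3 for *Aurkb* and *Bub1b*, and *Bub1b* was at -0.93 without it.

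Among 17 cell-cycle inhibitors and D cyclins, 5 fell and 3 rose, whereas without TMM factors 4 were called lower and 6 higher. *Cdkn1a*, which encodes p21, was at 156, 217 and 141 FPKM with anti-CD3 alone and 42.01, 62.3 and 61.8 with the combination (log2 fold change -1.85, SE 0.20, adjusted p = 3.57e-05), and *Ccnd3* at 174, 212 and 130.2 FPKM in the anti-CD3 libraries and 76.04, 60.8 and 60.7 in the combination libraries (log2 fold change -1.59, SE 0.19, adjusted p = 5.22e-05). *Cdkn2b*, an inhibitor of CDK4 and CDK6 that TGF-beta induces, was at 0.393, 0.173 and 0.427 FPKM with anti-CD3 alone and 6.47, 5.74 and 5.35 with the combination (log2 fold change 3.91, SE 0.54, adjusted p = 0.000151). The groups did not overlap for these 3 genes. Of 20 genes of the unfolded protein response 6 fell and 2 rose, and *Xbp1*, its secretory factor, was at 132, 150.1 and 90.1 FPKM in the anti-CD3 libraries and 51.9, 46.3 and 49.6 in the combination libraries (log2 fold change -1.54, SE 0.22, adjusted p = 0.000188). Without TMM factors 3 were called lower. The rises of *Dnajb9* and *Ern1* were short of 2-fold without anti-CD3 library 1 (0.86) and 2 (0.87). Of 21 apoptosis genes 3 rose and 3 fell. *Bcl2l11*, which encodes the death factor BIM, was at 8.41, 6.78 and 12.2 FPKM with anti-CD3 alone and 28.8, 32.4 and 34.2 with the combination (log2 fold change 1.61, SE 0.16, adjusted p = 2.18e-05), *Bmf*, a related factor, at 0.585, 0.321 and 0.536 FPKM in the anti-CD3 libraries and 4.21, 3.802 and 3.67 in the combination libraries (log2 fold change 2.82, SE 0.37, adjusted p = 0.000104), and *Bcl2l1*, which encodes the survival factor BCL-XL, at 49.6, 64.2 and 51.98 FPKM with anti-CD3 alone and 31.8, 32.5 and 33.4 with the combination (log2 fold change -1.10, SE 0.11, adjusted p = 2.16e-05; -0.97 without anti-CD3 library 2). Without anti-CD3 library 3, 5 apoptosis genes were called lower, and without TMM factors 5 were called higher and none lower. In autophagy and lysosome genes, *Ctsl*, cathepsin L, was the member of 23 that was called (log2 fold change 1.32, SE 0.27, adjusted p = 0.00183), and it was at 0.98 without combination library 1, which left none. Without anti-CD3 library 1 there were 2 rises, and without TMM factors 3. Without anti-CD3 library 2 or 3 or combination library 2, 1 member was called lower.

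Interferon-stimulated genes split, 10 of 34 rising and 4 falling. *Rtp4*, an interferon-induced chaperone of receptors, was at 0.321, 0.578 and 0.714 FPKM in the anti-CD3 libraries and 19.1, 4.38 and 4.28 in the combination libraries (log2 fold change 3.94, SE 0.73, adjusted p = 0.00107). *Ifit3* was at 0.187, 0.174 and 0.214 FPKM with anti-CD3 alone and 4.91, 0.655 and 0.896 with the combination (log2 fold change 3.22, SE 0.71, adjusted p = 0.00315). Combination library 1 was more than 4 times libraries 2 and 3 for both genes. The guanylate-binding proteins *Gbp3* and *Gbp7*, induced mainly by interferon gamma, did not show that split, with *Gbp3* at 9.34, 8.61 and 12.6 FPKM in the anti-CD3 libraries and 47.3, 38.5 and 39.01 in the combination libraries (log2 fold change 1.84, SE 0.14, adjusted p = 6.96e-06). *Oas3*, an antiviral synthetase, was at 16.7, 19.6 and 31.5 FPKM with anti-CD3 alone and 10.7, 3.83 and 4.53 with the combination (log2 fold change -2.01, SE 0.41, adjusted p = 0.00205), and *Isg15* at 16.6, 41.5 and 28.99 FPKM in the anti-CD3 libraries and 19.4, 7.39 and 7.08 in the combination libraries (log2 fold change -1.55, SE 0.42, adjusted p = 0.011), where anti-CD3 library 1 and combination library 1 overlapped. *Isg15* was not called without anti-CD3 library 2 (adjusted p = 0.0523). The number called lower was 9 without combination library 1 and 2 without anti-CD3 library 2 or 3; the number called higher ranged from 8 to 11 without single libraries. Of the 12 PYHIN genes, a family of DNA sensors chosen after the data were seen, 10 rose. *Ifi209* was at 0.259, 0.269 and 0.572 FPKM with anti-CD3 alone and 21.2, 11.02 and 10.9 with the combination (log2 fold change 5.11, SE 0.62, adjusted p = 6.52e-05), and *Mndal* at 1.72, 2.03 and 4.41 FPKM in the anti-CD3 libraries and 56.05, 31.5 and 32.6 in the combination libraries (log2 fold change 3.72, SE 0.39, adjusted p = 2.52e-05). Members of this family share near-identical sequence, so the split of reads among them is uncertain.

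Of 23 NF-kB and Toll-like receptor genes, 8 rose and 1 fell, and 6 of the 8 were Toll-like receptors. *Tlr1*, which senses bacterial lipopeptides together with TLR2, was at 4.54, 1.67 and 2.24 FPKM with anti-CD3 alone and 28.5, 18.9 and 19.8 with the combination (log2 fold change 2.79, SE 0.48, adjusted p = 0.000664). *Tlr9*, the sensor of bacterial DNA in B cells and other cells, was at 0.08503, 0.118 and 0.1396 FPKM in the anti-CD3 libraries and 2.396, 3.15 and 3.42 in the combination libraries (log2 fold change 4.48, SE 0.46, adjusted p = 2.46e-05). *Nod1*, a sensor of bacterial cell wall fragments, was at 0.669, 0.184 and 0.161 FPKM with anti-CD3 alone and 8.596, 5.61 and 6.06 with the combination (log2 fold change 4.06, SE 0.61, adjusted p = 0.000245). No combination library overlapped an anti-CD3 library for these genes. *Tlr2* and *Tlr4* rose from low levels, with log2 fold changes of 1.80 and 3.03 (adjusted p = 0.00325 and 0.000112). The NF-kB subunits *Nfkb1* and *Rela* had log2 fold changes of -0.43 and 0.22 and were not called. *Nfkbiz*, an inducible cofactor of NF-kB, was at 5.43, 3.45 and 5.15 FPKM in the anti-CD3 libraries and 20.5, 25.998 and 23.7 in the combination libraries (log2 fold change 1.98, SE 0.23, adjusted p = 5.05e-05), and *Bcl3*, another, at 47.5, 33.7 and 34.8 FPKM with anti-CD3 alone and 22.6, 17.4 and 15.6 with the combination (log2 fold change -1.27, SE 0.18, adjusted p = 0.000151). The study's methods state that CD4+ T cells were isolated for sequencing, and describe sorting on magnetic beads in the section on another culture. Toll-like receptors are expressed by B cells and myeloid cells, whose markers rose with them as given above. The part of B cells and myeloid cells in these rises was not tested.

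Of 11 genes that handle adenosine and purines, 3 rose and 2 fell. *Dpp4*, which encodes CD26, was at 3.07, 2.75 and 4.43 FPKM in the anti-CD3 libraries and 18.9, 19.4 and 19.6 in the combination libraries (log2 fold change 2.27, SE 0.21, adjusted p = 1.57e-05). *Adora2b*, an adenosine receptor, was at 3.89, 3.54 and 2.46 FPKM with anti-CD3 alone and 0.521, 0.372 and 0.257 with the combination (log2 fold change -3.27, SE 0.33, adjusted p = 2.31e-05). *Adora2a*, the main adenosine receptor of T cells, was at 12.98, 29.4 and 18.9 FPKM in the anti-CD3 libraries and 30.04, 29.2 and 30.2 in the combination libraries (adjusted p = 0.268). The groups overlapped for *Adora2a* and not for the other 2 genes. *Ada*, adenosine deaminase, fell (log2 fold change -1.14, SE 0.26, adjusted p = 0.0043), but was at -0.71 without anti-CD3 library 2, and without TMM factors 1 member was called lower.

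Several of the largest changes lay outside these lists. *Tgm2* (gene ID 21817, chr2:158116405-158146392 in GRCm38.p6), transglutaminase 2, was at 287, 220.4 and 203 FPKM with anti-CD3 alone and 4.25, 3.78 and 3.42 with the combination (log2 fold change -6.16, SE 0.41, adjusted p = 5.9e-06). *Akr1c18*, which reduces progesterone, was at 739, 331 and 290.5 FPKM in the anti-CD3 libraries and 5.84, 10.4 and 9.51 in the combination libraries (log2 fold change -5.95, SE 0.57, adjusted p = 1.76e-05). *Timp1*, an inhibitor of metalloproteinases, was at 40.6, 54.8 and 34.4 FPKM with anti-CD3 alone and 0.751, 0.5302 and 0.958 with the combination (log2 fold change -6.03, SE 0.39, adjusted p = 5.9e-06). The lowest anti-CD3 library exceeded the highest combination library by more than 20-fold for each. *Osr2*, *Serpinf1* and *Edn1*, which encodes endothelin-1, fell with log2 fold changes of -6.71, -6.52 and -6.69 (adjusted p = 6.51e-06, 1.75e-05 and 0.000751). *Edn1* was at 3.53, 25.8 and 27.3 FPKM in the anti-CD3 libraries and 0.0699, 0.292 and 0.276 in the combination libraries, lowest by far in library 1 of the anti-CD3 group.

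Among the rises, *Ms4a4b*, a membrane protein of T cells, was at 2.68, 2.15 and 3.26 FPKM with anti-CD3 alone and 382, 255 and 265 with the combination (log2 fold change 6.59, SE 0.62, adjusted p = 1.53e-05). *Mmp12*, the macrophage elastase, was at 0.05696, 0.0603 and 0.0179 FPKM in the anti-CD3 libraries and 15.7, 18.6 and 18.3 in the combination libraries (log2 fold change 8.26, SE 0.81, adjusted p = 1.96e-05), and *Ccl6*, a chemokine of myeloid cells, at 0, 0.0243 and 0 FPKM with anti-CD3 alone and 20.7, 10.4 and 10.2 with the combination, at least 364-fold higher (adjusted p = 9.83e-05). *Fcer1g*, the common chain of Fc receptors, rose (log2 fold change 6.17, SE 0.92, adjusted p = 0.00024), as did *Jchain*, the joining chain of secreted antibodies (log2 fold change 5.90, SE 1.38, adjusted p = 0.0047). *Chad* and the predicted gene *Gm6637* had log2 fold changes of 7.19 and 6.22 (adjusted p = 0.00038 and 0.000193). The groups did not overlap for these 7 genes, and combination library 1 was the highest of its group for *Ms4a4b*, *Ccl6*, *Fcer1g*, *Chad* and *Gm6637*. By mean counts scaled to library size, *Ighm*, *Gm8995*, *Arhgap45*, *Ftl1* and *Cd74* rose most, and *Pkm*, *Ldha*, *Eno1*, *Scd2* and *Pgk1* fell most. The rise of *Ftl1*, the ferritin light chain, which has near-identical copies, was short of 2-fold without combination library 1 (log2 fold change 0.87). Of the 12 MS4A genes tested, 7 rose, *Ms4a4c* at 0.399, 0.635 and 1.35 FPKM in the anti-CD3 libraries and 50.2, 35.4 and 33.8 in the combination libraries (log2 fold change 5.51, SE 0.50, adjusted p = 1.3e-05). *Tbc1d4*, a regulator of glucose transporter traffic chosen after its values were seen, was at 0.749, 0.506 and 1.39 FPKM with anti-CD3 alone and 35.3, 41.4 and 38.5 with the combination (log2 fold change 5.22, SE 0.43, adjusted p = 9e-06).

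Leaving out 1 library at a time kept the number of genes called changed between 4766 and 5745. The largest loss came from anti-CD3 library 2, and 5577 genes were called without combination library 1. No batch is given in the labels, and a batch that followed the treatment groups could not be told apart from the treatment.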

How the data were processed

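RNA of 12 libraries (4 groups of 3) of mouse CD4+ T cells was sequenced after 3 days of culture, and 6 libraries are compared here. According to the submitters' processing notes, which give neither role nor order, bcl2fastq 2.20.0, Trimmomatic, HISAT2 2.1.0 and StringTie 2.1.3b were used with GRCm38 (mm10). The authors deposited whole-number counts per gene without normalization, which may be rounded estimates where the counting tool assigns fractions of reads. The deposited FPKM values are scaled to transcript length and library size; a quantile normalization named in the study's methods is not visible in them. TPM values, in 12 further columns, were left out.

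Counts of genes above 0 in at least 3 of 12 libraries were tested in R 4.3.3 with edgeR 4.0.16 (quasi-likelihood test, TMM factors, 1 mean for each of 4 groups, all 12 libraries). Calls needed a change of at least 2-fold and an adjusted p (Benjamini-Hochberg) under 0.05. Standard errors were taken as log2 fold change over the root of the F statistic. An exact permutation test of 3 against 3 libraries cannot go below p = 0.1. Folds against groups at 0 use a floor of 3 counts per library, and cover counting error only.

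The gene lists were chosen with earlier results of these data known. Genes named by rule were the 3 largest called changes of each list with a mean of at least 1 FPKM, the 10 largest rises and falls with a mean of at least 5 FPKM and no overlap, the 5 largest rises and falls in scaled counts, and the 3 most abundant genes of each marker list. Other list members were named after their values were seen, and 16 gene families were added then. Some members of the lists are counted but not reported here by name. Gene positions and promoters are from RefSeq (GRCm38.p6). Alternatives were DESeq2 1.42.0, limma 3.58.1 (pseudocounts 1 and 0.1), other filters and scaling, a replicate block, the 6 libraries alone, and each library left out. The edgeR test was tried on simulated counts. It recovered 54 of 100 genes changed by 1.5 on the log2 scale and 71 of 100 changed by 2, with 2 false calls. Tables and figures were made with Python 3.11.15, pandas 2.3.3 and matplotlib 3.10.9.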

Additional observations from a re-analysis of the deposited data

How the results depend on the processing

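The number of genes changed was 5797 with edgeR, 5704 with DESeq2, 5794 without TMM factors, 5452 with a stricter filter on low counts (filterByExpr), 5616 without a filter and 5438 from the 6 libraries alone. limma on quantile-normalized log2(FPKM + 1) called 2259 genes, 1180 higher and 1079 lower, and 4659 with a pseudocount of 0.1; a larger pseudocount shrinks the changes of scarce genes by construction. Leaving out 1 library gave 4766 to 5745 changed genes, 2681 to 3101 higher and 2085 to 2702 lower. Keeping libraries 2 and 3 of every group, an alternative chosen after seeing the data, gave 5643. Groups of 3 libraries limit the precision of every value here.

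Of 270 named genes, 213 to 270 kept their direction and side of the threshold under each setting. No gene called changed turned its direction. Without TMM factors 16 genes fell short of 2-fold, among them *Il2ra* (-0.96), *Cd40lg* (-0.90), *Mcm3* (-0.97), *Aurkb* (-0.91), *Il21r* (-0.93), *Ccl3* (-0.83), *Zeb2* (-0.84) and *Ada* (-0.92). *Ifng* was called with DESeq2 (log2 fold change 1.32), and *Ctla4* (1.17) and *Ccr7* (1.52) with limma and a pseudocount of 1. More calls were lost than gained with limma. With a pseudocount of 1, 49 of the named genes lost their call, among them *Il2ra* (-0.70), *Irf4* (-0.84), *Ccr4* (-0.84), *Socs1* (-0.95), *Stat5a* (-0.64), *Mcm3* (-0.74), *Aurkb* (-0.79), *Tnfrsf4* (-0.89), *Tlr2* (0.72) and *Tlr4* (0.83), and 24 did with 0.1. All of the genes just listed except *Tlr2* and *Tlr4* lost their call with 0.1 as well, at nearly the same values (*Il2ra* -0.71, *Stat5a* -0.65). With limma and a pseudocount of 1 the lists also held fewer genes called lower: 8 DNA replication genes, 15 of MYC and ribosome biogenesis, 2 lineage factors, 2 costimulatory genes, 2 of the unfolded protein response, 1 ribosomal protein, 1 proteasome subunit, 4 initiation factors, 5 aminoacyl-tRNA synthetases and no homing receptor or integrin. It called fewer genes higher among chemokines (4), Toll-like receptor and NF-kB genes (5) and follicular helper genes (5), and its heavy and kappa chain segments called higher were 33 and 30.

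The genes that turned direction were not called in any of those settings, and the cause was not tested. With limma and pseudocounts of 1 and 0.1, *Cd5* was at 0.13 and 0.13, *Cd8a* at -0.021 and -0.075, *Xist* at 0.28 and 0.28, *Mki67* at 0.39 and 0.39, and *Nfkb1* at 0.023 and 0.023. Without TMM factors *Cd8b1* was at 0.15, *Ppp3ca* at 0.11 and *Mki67* at 0.16. With DESeq2 *Mki67* was at 0.0029. From libraries 2 and 3, *Cd3g* was at -0.20, *Cd8a* at -0.54, *Ccl22* at -0.47, *Xist* at 0.079, *Il10* at 0.13 and *Mki67* at 0.30. Leaving out single libraries, *Cd3g* ranged from -0.081 to 0.43, *Cd8b1* from -0.34 to 0.12, *Cd8a* from -0.21 to 0.68, *Ccl22* from -0.22 to 0.63, *Rcan1* from -0.013 to 0.28, *Pdcd1* from -0.044 to 0.74 and *Mki67* from -0.25 to 0.18.

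With replicate number added as a block, 5639 genes were changed (3178 higher, 2461 lower), and of the named genes *Themis* fell short of 2-fold (-0.95). List members not called without the block gained a call with it: *Gzmc* (1.98), *Serpinb9* (1.05), *Prdm1* (1.56), *Maf* (1.39), *Lifr* (2.51), *Gpr15* (3.62), *Ccnd1* (1.76), *Bank1* (1.28), *Xcr1* (4.61) and *Bst2* (-1.05), which took the granzymes and killing genes called higher from 1 to 3. Same-numbered libraries did not deviate together in every pair (correlations of 0.099, -0.042 and 0.136 over 17909 genes), so the numbers are not taken as a pairing.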
